A study of Canis lupus familiaris with 4 samples.

Results

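The genes described are 4 protein-coding genes that are carried by the mitochondrial DNA of the dog: COX1, COX2, COX3 and ATP6. They were chosen from 29881 annotated transcripts by exact length (1545, 684, 784 and 681 bases, in that order) and by a mean abundance of at least 6000 TPM over all 4 libraries. TPM is the unit of the deposited tables, an abundance corrected for transcript length. The deposited tables carry transcript identifiers and no gene names, so each name rests on length and abundance. The libraries came from MDCK (Madin-Darby canine kidney) cells, a long-established epithelial line from the dog, which carried the tTR-KRAB repressor and a lentiviral short hairpin RNA against STK11 (Lkb1) that tetracycline switches on. The 2 control libraries were made without tetracycline and the 2 STK11 knockdown libraries with it, and the labels describe 2 independent experiments per condition. All 4 libraries share the line, the repressor and the hairpin construct. No library with tetracycline and no hairpin was analysed here, so the drug and the knockdown cannot be told apart.

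Mitochondria keep a small circular genome that is transcribed into long precursors, which are cut, largely at the transfer RNAs between the genes, into messenger, ribosomal and transfer RNAs. COX1, COX2 and COX3 form the catalytic core of cytochrome c oxidase (complex IV), which passes electrons to oxygen and pumps protons. ATP6 is the membrane subunit of ATP synthase (complex V) through which protons flow back while ATP is made. STK11 encodes LKB1, a kinase that activates the energy sensor AMPK. AMPK is known for its part in mitochondrial biogenesis and turnover. Tetracyclines are inhibitors of bacterial ribosomes that can also slow protein synthesis on mitochondrial ribosomes. In kidney epithelium, respiration supplies much of the ATP spent on ion transport.

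Sequencing depth was 21806811 and 22391648 estimated counts for control replicates 1 and 2, and 32092840 and 38558178 for knockdown replicates 1 and 2. Each of the 4 genes had between 61900 and 325255 estimated counts in a library. STK11 itself was not analysed here for want of a gene name, so its level could not serve as a check of the group labels. Markers of kidney epithelium were not checked for the same reason.

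The rule itself used length and mean abundance, so the values on either side of its threshold are a description. The lowest of them by mean abundance, COX1, stood at 6707 TPM. The highest transcript of a matching length under the threshold, of 681 bases, stood at 211 TPM. COX3 had the only row of its length, while 22, 24 and 26 rows shared the lengths of COX1, COX2 and ATP6. COX1 is ENSCAFT00000034830, COX2 ENSCAFT00000034833, ATP6 ENSCAFT00000034836 and COX3 ENSCAFT00000034837. These rows lie in a run of 37 rows with consecutive identifiers. The run holds 22 rows of 60 to 75 bases, the size of transfer RNAs, and 15 longer ones. Of these, 2 have the lengths listed for the mitochondrial ribosomal RNAs and 13 are of messenger size, including the 4 genes. These are the classes of gene that a mammalian mitochondrial genome carries.

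All 4 genes were among the 9 most abundant of the 29881 transcripts in every library. Together they took 2.48% and 3.18% of all TPM in control replicates 1 and 2, against 3.11% and 3.29% in knockdown replicates 1 and 2. Control replicate 1 was the low library, and control replicate 2 lay between the 2 knockdown libraries, so the groups overlapped. The mean was 2.83% ± 0.49 (SD, n = 2) in the controls and 3.20% ± 0.12 (SD, n = 2) in the knockdown. An exact two-sided permutation test gave p = 0.667, and 2 libraries against 2 cannot go below 0.333. As a share of estimated counts, the 4 genes took 1.75% and 2.26% in the controls, against 1.99% and 2.14% in the knockdown. The 95% Wilson intervals of these shares were 0.0091 to 0.0123 percentage points wide and cover counting error only. The gap between the 2 controls was far wider than counting error. In bulk libraries, a difference in RNA per cell and one in the number of cells that carry it cannot be told apart.

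COX1 encodes the subunit that holds the oxygen-reducing site of complex IV. It stood at 6417 and 7574 TPM in control replicates 1 and 2, and at 6465 and 6374 TPM in knockdown replicates 1 and 2. The 3 values other than that of control replicate 2 lay close together, and the groups overlapped. In CPM, counts divided by library size, which were scaled between libraries by the trimmed mean of M values and carry no length correction, COX1 stood at 8612 and 10352 in the controls and at 8136 and 8444 in the knockdown. On that scale both knockdown libraries lay under both controls. COX1 was the only 1 of the 4 genes without overlap in CPM, against 49.2% of the 16882 tested transcripts in either direction and 24.9% in this one. In edgeR's quasi-likelihood test the log2 fold change, knockdown over control, came to -0.19 ± 0.10 (SE), and the adjusted p was 0.416.

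COX2 encodes the subunit that takes electrons from cytochrome c. It stood at 6143 and 7554 TPM in the controls and at 7877 and 7908 TPM in the knockdown. The knockdown libraries were nearly equal and lay above both controls in TPM, as did those of 33.2% of all tested transcripts, but in CPM the groups overlapped, with 2870 and 3617 in the controls, against 3467 and 3658 in the knockdown. The edgeR test gave COX2 a log2 fold change of 0.14 ± 0.12 (SE) and an adjusted p of 0.637.

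COX3 encodes the remaining core subunit, which stabilises the enzyme. It stood at 5456 and 7585 TPM in the controls and at 7210 and 7782 TPM in the knockdown. The controls differed by 1.39-fold, the widest gap between replicates among the 4 genes, and the groups overlapped. For COX3 the log2 fold change in edgeR was 0.13 ± 0.18 (SE), and the adjusted p was 0.758.

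ATP6 had the highest TPM of the 4 genes in each library. It stood at 6755 and 9047 TPM in the controls and at 9588 and 10835 TPM in the knockdown. In TPM the knockdown libraries lay above both controls, as for COX2. In CPM the groups overlapped, with 3135 and 4304 in the controls, against 4193 and 4980 in the knockdown. In edgeR the ATP6 log2 fold change came to 0.30 ± 0.17 (SE), and the adjusted p was 0.439.

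**Figure D1:**
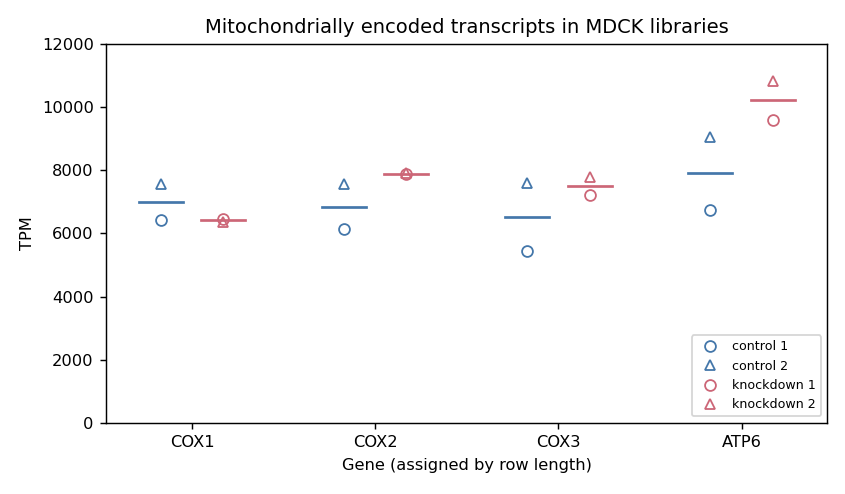
Abundance of COX1, COX2, COX3 and ATP6 in TPM (vertical axis, from 0) in the 2 control (blue) and 2 STK11 knockdown (red) libraries. Circles are replicate 1, triangles replicate 2, and bars the group means; control replicate 1 is the lowest library for COX2, COX3 and ATP6, and the knockdown libraries of COX2 nearly coincide.

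None of the 4 genes passed an adjusted p under 0.05 in the edgeR test, against 0.438% of all 16882 tested transcripts, and 0 of 4 had an unadjusted p under 0.05. DESeq2 called 0 of 4 as well, against 5.28% of all tested transcripts. The median log2 fold change of the 4 genes was 0.13, against 0.00050 over all tested transcripts. The 95% intervals of the fold, knockdown over control, ran from 0.729 to 1.05 for COX1, 0.887 to 1.36 for COX2, 0.808 to 1.49 for COX3 and 0.918 to 1.66 for ATP6. These intervals include no change, but also changes as large as their bounds, so the comparison does not show that the levels were equal.

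For each gene the 2 controls lay farther apart than the 2 knockdown libraries. Control replicate 2 exceeded control replicate 1 in CPM by 0.27 (log2) for COX1, 0.33 for COX2, 0.51 for COX3 and 0.46 for ATP6. The median absolute difference between the 2 controls over all tested transcripts was 0.14. All 15 long rows of the run were higher in control replicate 2 than in control replicate 1 in CPM, against 50.5% of all tested transcripts. All 15 were likewise higher in knockdown replicate 2 than in knockdown replicate 1, against 50.1% of all tested transcripts. Between the knockdown libraries the difference, replicate 2 over replicate 1, was 0.053 for COX1, 0.077 for COX2, 0.18 for COX3 and 0.25 for ATP6. Without control replicate 1 the log2 fold changes, knockdown over control, were -0.32 for COX1, -0.020 for COX2, -0.098 for COX3 and 0.093 for ATP6. Without control replicate 2 they were -0.055, 0.31, 0.41 and 0.55 in the same order. The direction for COX2 and COX3 therefore rested on control replicate 1. In these fits the lone library of a group is assumed to vary like the pair of the other group.

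Between the 2 controls, each ratio of 2 of the genes differed by less than the level of either gene in the pair. Between the knockdown libraries that was not so for every pair. The ratio of COX1 to COX2 in TPM was 1.04 and 1.00 in control replicates 1 and 2, against 0.821 and 0.806 in knockdown replicates 1 and 2. The knockdown ratios were lower than both control ratios, by 0.33 on average on the log2 scale, where the SD was 0.042 in the controls and 0.019 in the knockdown (n = 2 each). The ratio of COX1 to COX3 was 1.18 and 0.999 in the controls, against 0.897 and 0.819 in the knockdown, a mean log2 difference of -0.34. The ratio of COX1 to ATP6 was 0.950 and 0.837 in the controls, against 0.674 and 0.588 in the knockdown, a mean log2 difference of -0.50. In each of these 3 pairs the groups did not overlap, with COX1 lower against its partner in the knockdown. Over all pairs of tested transcripts with TPM above 0 in every library, the ratios did not overlap between the groups in 48.5%.

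The other 3 pairs differed less. The ratio of COX2 to COX3 was 1.13 and 0.996 in the controls, against 1.09 and 1.02 in the knockdown, with overlapping groups and a mean log2 difference of -0.0071. The ratio of COX2 to ATP6 was 0.909 and 0.835 in the controls, against 0.822 and 0.730 in the knockdown, a mean log2 difference of -0.17. The ratio of COX3 to ATP6 was 0.808 and 0.838 in the controls, against 0.752 and 0.718 in the knockdown, a mean log2 difference of -0.16. The groups did not overlap in 5 of the 6 pairs, and each of these 5 had an exact two-sided permutation p of 0.333, the smallest that 2 against 2 allows. Against the 48.5% over all pairs, the count of 5 in so few linked pairs is a description. An exact permutation test could therefore not pass 0.05 for any ratio. The 6 ratios come from 4 values per library and are not independent of each other.

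**Figure D2:**
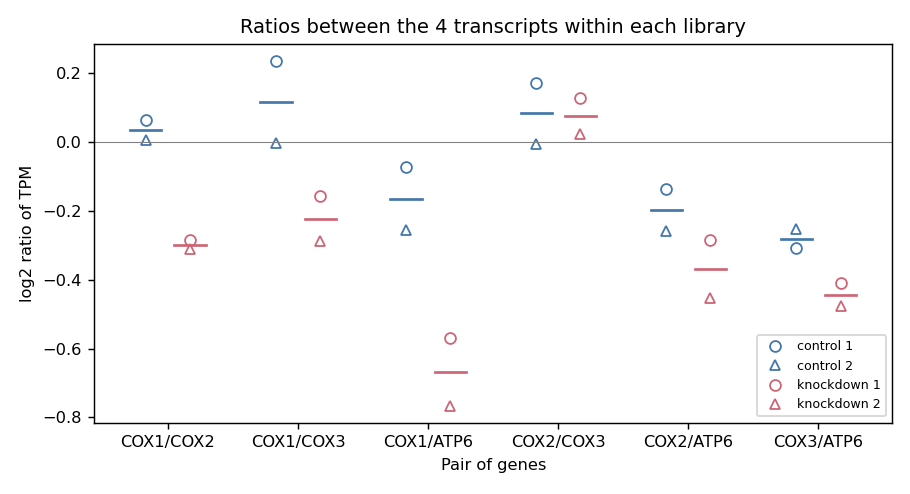
Log2 ratio of TPM (vertical axis) for the 6 pairs of genes in each library, with controls in blue and knockdown in red, circles for replicate 1, triangles for replicate 2 and bars for group means. The knockdown points lie under the control points in every pair except COX2/COX3, where they lie between the controls.

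The order of the genes within a library depended on the length correction. TPM divides by an effective length, which was 220 to 224 bases shorter than the transcript for these genes and so weighs more on short transcripts than on COX1. In TPM the order in the controls was ATP6, COX1, COX2, COX3 in replicate 1 and ATP6, COX3, COX1, COX2 in replicate 2. In both knockdown libraries it was ATP6, COX2, COX3, COX1. The highest gene exceeded the lowest by 1.24-fold and 1.20-fold in the controls and by 1.48-fold and 1.70-fold in the knockdown. With counts per base of plain length, COX1 came first in both controls and was overtaken by ATP6 in knockdown replicate 1 and by ATP6 and COX3 in knockdown replicate 2. On that scale the mean log2 difference in the ratio of COX1 to ATP6 was again -0.50, and the groups did not overlap in the same 5 pairs. COX2 and ATP6 are almost the same length, so their order hardly depended on the correction.

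ATP8, a small subunit of ATP synthase, has a reading frame that overlaps that of ATP6, and the quantification divides a read that matches more than 1 transcript among them. The estimated counts are written to 6 significant digits. In the controls those of COX2 and COX3 were whole numbers within the rounding of the written digits, 0.05, whereas those of ATP6 and ATP8 were not. The sum of ATP6 and ATP8 was within 0.05 of a whole number in both controls, which is also that rounding. ATP8 held 3.73% and 4.57% of that sum in control replicates 1 and 2, against 3.93% and 3.59% in knockdown replicates 1 and 2. For COX1 the digits written do not reach the decimals in any library.

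The other mitochondrial genes were matched from a list of the lengths of 11 genes of dog mitochondrial DNA, written from general knowledge. A match needed a row of the exact length with a mean of at least 100 TPM and at least 10 times the next row of that length. This named 5 genes, but the row it gave for ND6 lies outside the run, so that match is doubtful. Within the run, exact length names 8 of the 11: ND4, ND4L, ND5 and ND6, subunits of NADH dehydrogenase (complex I), CYTB of complex III, ATP8, and the ribosomal RNAs RNR1 and RNR2. This second matching was chosen after the values were seen and is used below. The rows of 957, 1044 and 347 bases are 1, 2 and 1 bases longer than the lengths listed for ND1, ND2 and ND3, and are left unnamed.

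Of these 11 other long rows, 0 passed an adjusted p under 0.05 in the edgeR test, against 0.438% of all tested transcripts. An unadjusted p under 0.05 was found for 4, against 17.7% of all tested transcripts. DESeq2 called 4, against 5.28% of all tested transcripts. Genes cut from shared precursors are not independent of each other. None of the 5 rows matched by the first rule passed. The 4 rows with an unadjusted p under 0.05, which DESeq2 also called, were the ribosomal RNAs and the rows of 347 and 1044 bases. With the replicate number as a block, edgeR called 5 of the 11, 3 higher and 2 lower, against 8.90% of all tested transcripts; nothing in the labels ties equal numbers to a shared experiment. The 5 were the same 4 rows and CYTB. The block fit left 1 residual degree of freedom, against 6 prior ones drawn from all transcripts. Its p-values, here and below, therefore rest mostly on variance shared across transcripts.

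The 3 unnamed rows, nearest in length to ND1, ND2 and ND3 of complex I, had log2 fold changes above 0. The 4 named complex I genes lay below 0, so no single direction can be given for complex I. The row of 347 bases stood at 2349 and 2817 TPM in the controls and at 4815 and 5108 TPM in the knockdown, with no overlap. By edgeR its log2 fold change came to 0.87 ± 0.13 (SE), and the adjusted p was 0.0722, or 0.00248 with the block. The row of 1044 bases had a log2 fold change of 0.61 ± 0.18 (SE) and an edgeR adjusted p of 0.183, or 0.0102 with the block. The log2 fold changes of ND4, ND4L, ND5 and ND6 lay between -0.27 and -0.22, close to that of COX1, with edgeR adjusted p of 0.309 to 0.630. ND6 is encoded on the strand opposite to ND5, and the sources used here do not say whether counting used the strand.

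The ribosomal RNAs of the mitochondrial ribosome were the least abundant of the long rows by mean TPM, and both were lower in each knockdown library than in each control. RNR1 stood at 356 and 471 TPM in the controls and at 239 and 281 TPM in the knockdown, with a log2 fold change of -0.74 ± 0.18 (SE) and an edgeR adjusted p of 0.133, or 0.00297 with the block. RNR2 stood at 199 and 231 TPM in the controls and at 143 and 151 TPM in the knockdown, with a log2 fold change of -0.62 ± 0.11 (SE) and an adjusted p of 0.0897, or 0.00444 with the block. CYTB had a log2 fold change of 0.34 ± 0.15 (SE) and an edgeR adjusted p of 0.330, or 0.0287 with the block. Of the 22 rows of 60 to 75 bases, which together held 952 to 1689 estimated counts in a library, 8 were tested and 0 passed; 1 had an unadjusted p under 0.05, and their median log2 fold change was -0.45. That row, ENSCAFT00000034826 of 69 bases, had a log2 fold change of -0.78 ± 0.31 (SE) and an edgeR adjusted p of 0.277, or 0.0333 with the block, the only 1 of the 8 called that way.

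**Figure D3:**
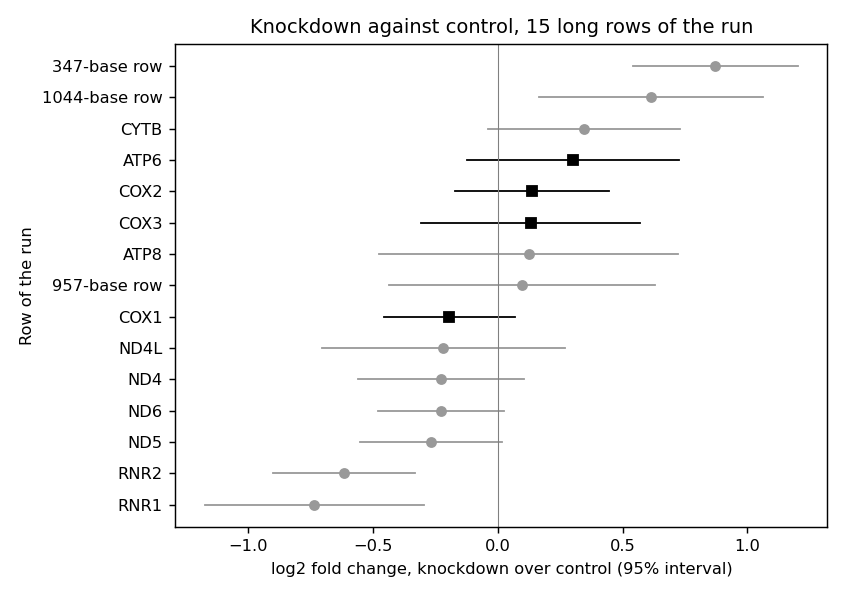
Log2 fold change, knockdown over control (horizontal axis), with its unadjusted 95% interval for the 15 long rows of the run (vertical axis); black squares are COX1, COX2, COX3 and ATP6, and grey circles the other rows. The intervals of all 4 genes cross 0, while the rows of 347 and 1044 bases lie to the right of it and the 2 ribosomal RNAs to the left.

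Among the 13 messenger rows, the 4 genes supplied 66.8% and 65.4% of summed TPM in control replicates 1 and 2, against 64.2% and 64.0% in knockdown replicates 1 and 2. In estimated counts, with no length correction, they supplied 75.5% and 74.8% in the controls, against 74.9% and 74.1% in the knockdown, and the groups overlapped. In TPM, COX1 was 17.3% and 15.6% of that sum in the controls, against 13.3% and 12.4% in the knockdown, lower in both knockdown libraries than in both controls. ATP6 was 18.2% and 18.6% in the controls, against 19.8% and 21.1% in the knockdown, higher in both. COX2, at 15.4% to 16.6%, and COX3, at 14.7% to 15.6%, overlapped between the groups in TPM. In estimated counts COX1 was again lower in both knockdown libraries, at 36.7% and 34.2% in the controls, against 31.0% and 29.2%, and ATP6 was again higher. On that scale COX2, at 12.2% and 11.9% against 13.2% and 12.6%, and COX3, at 13.2% and 14.6% against 14.7% and 15.1%, were higher in both knockdown libraries without overlap. The row of 347 bases had TPM shares of 6.33% and 5.80% in the controls, against 9.92% and 9.93% in the knockdown. In TPM the shares of ND4, ND4L, ND5 and ND6 were also lower in both knockdown libraries than in both controls. Those of CYTB and the row of 1044 bases were higher in both, while ATP8 and the row of 957 bases overlapped. Shares without overlap were thus not particular to COX1 and ATP6. These shares sum to 100 in each library, so a higher share of one row lowers the others. For COX1 and ATP6 the exact permutation p was 0.333, the smallest possible here. How often such shares do not overlap was not computed for other sets of rows. Over all tested transcripts, 49.2% did not overlap between the groups in CPM. Over all pairs of them with TPM above 0 in every library, 48.5% did not overlap in their ratio. The shares without overlap are therefore a description.

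**Figure D4:**
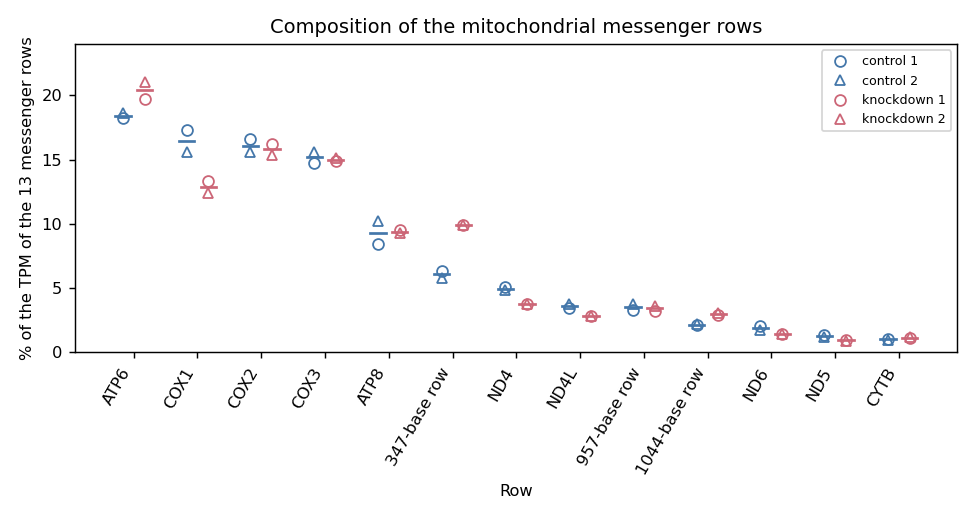
Share of each of the 13 messenger rows in their summed TPM (vertical axis, percent), with controls in blue, knockdown in red, circles for replicate 1, triangles for replicate 2 and bars for group means. COX1 lies at 15.6% or more in the controls and at 13.3% or less in the knockdown, while COX2 and COX3 overlap.

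The transcripts outside the run whose profile over the 4 libraries was most like that of the 4 genes were sought among 145 rows with a mean of at least 1000 TPM. Likeness was the Euclidean distance between mean-centred log2 CPM values. The nearest were ENSCAFT00000043235, of 174 bases, at a distance of 0.088, and ENSCAFT00000043979, of 306 bases, at 0.16. The distances of COX1, COX2, COX3 and ATP6 from their own mean profile were 0.31, 0.072, 0.099 and 0.23, so 2 of the 4 genes were farther from it than either of these transcripts. The adjusted p of the 2 transcripts in the edgeR test were 0.737 and 0.790. Both were picked by the same values that the test used, so these p-values are a description.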

How the data were processed

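The authors quantified each library by kallisto (version 0.42.4) against CanFam3.1, per the submitters' processing notes; which annotation release they used is not stated there. Each library has, per the file headers, estimated counts (not normalized, reads divided among matching transcripts) and TPM, which the authors corrected for effective length. Identifiers matched 0 genes of the reference table, so no gene names or sequences were added. Estimated counts were rounded, kept by filterByExpr (minimum count 10, minimum total 15; 16882 transcripts, all 4 genes among them), scaled by TMM and tested in edgeR 4.0.16 (R 4.3.3) by the two-sided quasi-likelihood test with group as the only term and Benjamini-Hochberg adjustment over all transcripts. Standard errors are |log2 fold change|/√F, and the 95% intervals from these with 2 residual and 3.52 prior degrees of freedom. The test was tried on simulated data with 100 transcripts changed 2-fold and 100 changed 4-fold among 16882, and recovered 77% and 97% with 33 false calls. Replicates differed by more than counting noise (chi-square per degree of freedom 17.3 in the controls and 17.6 in the knockdown). P-values measure the spread between these libraries. All 4 genes are named; other mitochondrial genes were named by length, and the 2 nearest profiles by distance. The genes, lists and tests were chosen with earlier results of these data known. Alternatives changed the scaling, filter, tool, pseudocount, replicate block and libraries, using DESeq2 1.42.0 and limma 3.58.1.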

Additional observations from a re-analysis of the deposited data

How the results depend on the processing

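The 4 genes failed the threshold under all 17 alternatives run, and 66 of the 68 log2 fold changes kept their direction. The exceptions were COX2 (-0.020) and COX3 (-0.098) without control replicate 1. Leaving out each library gave -0.32 to -0.055 for COX1, -0.020 to 0.31 for COX2, -0.098 to 0.41 for COX3 and 0.093 to 0.55 for ATP6. The lowest adjusted p was that of ATP6 with the replicate block, 0.0692 (log2 fold change 0.31); the block gave 0.231 for COX1, 0.378 for COX2 and 0.400 for COX3. Across transcripts, the deviations of both replicates numbered 1 correlated at 0.17. With 2 pairs this cannot decide whether libraries of equal number were paired. The scaling to the 13 mitochondrial messenger rows, counted among the 17, was chosen after seeing the data. The 4 genes supply 74.1% to 75.5% of the counts it scales by, so it could hardly show a change common to them.

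The number of transcripts called, 74 (18 higher, 56 lower), was 30 with library totals only, 167 with no filter, 126 with a minimum of 1 CPM in 2 libraries, 892 in DESeq2, 158 in limma-voom, 3 on log2(TPM + 1), 13 on log2(TPM + 0.1), 158 with robust empirical Bayes, 1503 with the replicate block (718 higher, 785 lower) and 464 when scaled to the mitochondrial messenger rows; the cause was not tested. Leaving out each library gave 2 to 112. Of the rows matched by the first length rule, 0 were called, and 1 (CYTB) with the block. Of the 11 other long rows of the run, 0 were called in the main fit. With all libraries kept, that count was 1 with no filter, 4 in DESeq2, 5 with the block and 0 under the other alternatives.

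Levels depended on the unit. In counts scaled by plain length and library total (RPKM), control and knockdown means were 6098 and 5395 for COX1, 4712 and 5237 for COX2, 4765 and 5280 for COX3 and 5429 and 6769 for ATP6. In TPM over rows of at least 300 bases they were 8697 and 7826, 8516 and 9621, 8115 and 9139, and 9831 and 12451 in the same order. Mean ratios over the 4 libraries with plain length were 1.16 for COX1 to COX2 (0.919 in TPM), 1.16 for COX1 to COX3 (0.973) and 0.968 for COX1 to ATP6 (0.762). The share of the 4 genes in all TPM was higher in the knockdown by 0.375 percentage points, and by 0.388 over rows of at least 300 bases and 0.0588 as a share of counts. Leaving out each library gave 0.0259 to 0.725 for the share of TPM. Counting error is narrow beside the gap between the 2 controls for these genes.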
